A study of Mus musculus with 4 samples.

Results

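The 40 genes described here work in germ cells, in meiosis or in the pluripotent cells of the early embryo, and were grouped as genes of a kind that DNA methylation is known to keep silent in the cells of the body. The grouping is by function, although it was made with earlier results of these data known, and some members, Tdrd7 above all, were well counted in these cells. They were taken by gene symbol from a table of 54532 genes with no filter on expression, and all 40 had a row. By role, 16 belong to the piRNA pathway and nuage, 10 to meiotic chromosomes and meiotic entry, 9 are other germ cell genes, and 5 are genes of pluripotency and the early embryo. The question was whether siRNA against DNMT1 raised their RNA.

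RNA came from C3H10T1/2 cells, an established mouse MSC line of embryonic origin. Control cells received a control siRNA and siDNMT1 cells an siRNA against DNMT1, in both cases for 48 h. OB cells received the control siRNA and siDNMT1_OB cells the DNMT1 siRNA. Both were then induced towards osteoblasts for 3 days with ascorbic acid, glycerophosphate and dexamethasone. Induced and untreated cells therefore differ in medium and in time after transfection, and these cannot be told apart. Each group held 1 library of poly(A) RNA from a bulk culture, so the spread between cultures is not known, and p-values stand only beside a fit described at the end. In bulk RNA, fewer expressing cells and less RNA per cell cannot be told apart. The knockdown was by transfected siRNA, and the table holds RNA counts only. No methylation or DNMT1 protein level therefore stands beside them here. The study examined DNMT1 depletion by western blotting in induced cells. It also reported that the excess of hypomethylated regions after the knockdown was more prominent in induced cells.

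DNMT1, recruited by UHRF1 to hemimethylated CpG sites, keeps methylation patterns through cell division. Germline genes with CpG-rich promoters are methylated when the embryo implants and stay silent in body cells, and they are among the genes that respond when methylation is lost. The piRNA pathway uses PIWI proteins and their small RNAs, gathered in a granule called nuage, to silence transposons in germ cells.

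The total gene counts ranged from 22296046 to 27367792, and a count of 0 allows up to 3 counts, which is between 0.111 and 0.133 CPM (counts per total, adjusted for library composition). Dnmt1 had 7195 counts in the control library, 3375 with siDNMT1, 1931 with OB and 2492 with siDNMT1_OB. It was lower in siDNMT1 than in control, at a ratio of 0.497 (95% interval 0.477 to 0.517), and was not lower in siDNMT1_OB than in OB, at a ratio of 1.09 (1.03 to 1.16). The labels therefore match Dnmt1 RNA in untreated cells only, and "the library labelled siDNMT1_OB" is written below wherever a direction is drawn from it. OB induction went with a lower Dnmt1 level, at 0.322 of control (0.306 to 0.339). All 12 mesenchymal markers had counts, with Col1a1 between 205939 and 288387. Of these, Twist2 at 0.434 (0.336 to 0.556) and Ly6a at 0.488 (0.461 to 0.516) were lower in siDNMT1 than in control, and Nt5e at 2.11 (1.24 to 3.75) was above OB in the library labelled siDNMT1_OB. Of other cell types, the 5 spermatid markers summed to between 4 and 10 counts with Tnp1 at 0 in all 4 libraries. The 4 markers of testis somatic cells summed to between 105 and 123 with Fshr at 0. The 5 blood markers summed to between 60 and 85, most of it from Cd68 at 47 to 62, with Ptprc between 0 and 2. The 4 epithelial markers summed to between 8 and 28 with Epcam and Krt18 at 0. The 4 endothelial markers summed to 61 counts in the control library, 159 with siDNMT1, 72 with OB and 209 with siDNMT1_OB, nearly all from Tek, the angiopoietin receptor. The others did not follow Tek: in the same order, Pecam1 had 8, 4, 4 and 3 counts, Kdr 1, 0, 4 and 3, and Cdh5 1, 3, 1 and 0. The part of these cells in the results below was not tested.

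The promoters of these genes were then described. CpG-rich promoters are typical of genes silenced in this way, so CpG content is not independent of how the members were chosen. For 33 of the 40 genes RefSeq gave the 250 bases before an annotated start (GRCm38.p6). The windows shown here were chosen because all of their bases lie outside the gene as annotated in the count table and because they differ in counts and CpG. Hormad1 (chr3:95559427-95559676 on the plus strand) had no count in any library, Tex19.1 (chr11:121145893-121146142 on the plus strand) had 1 count in all, Sycp1 (chr3:102936101-102936350 on the minus strand) was counted in every library, and Nanog (chr6:122707239-122707488 on the plus strand) is a CpG-poor promoter. Capitals mark each CpG, the dinucleotide that DNMT1 methylates.
Hormad1: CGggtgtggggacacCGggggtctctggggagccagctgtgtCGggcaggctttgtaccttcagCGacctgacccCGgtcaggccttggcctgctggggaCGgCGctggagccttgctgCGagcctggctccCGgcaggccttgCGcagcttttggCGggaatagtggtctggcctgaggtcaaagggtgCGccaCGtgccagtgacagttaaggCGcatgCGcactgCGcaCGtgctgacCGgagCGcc
Tex19.1: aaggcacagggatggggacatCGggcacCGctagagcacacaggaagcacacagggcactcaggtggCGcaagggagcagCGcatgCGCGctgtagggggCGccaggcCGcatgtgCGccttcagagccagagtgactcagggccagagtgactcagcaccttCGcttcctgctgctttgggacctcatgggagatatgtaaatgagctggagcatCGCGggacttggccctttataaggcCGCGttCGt
Sycp1: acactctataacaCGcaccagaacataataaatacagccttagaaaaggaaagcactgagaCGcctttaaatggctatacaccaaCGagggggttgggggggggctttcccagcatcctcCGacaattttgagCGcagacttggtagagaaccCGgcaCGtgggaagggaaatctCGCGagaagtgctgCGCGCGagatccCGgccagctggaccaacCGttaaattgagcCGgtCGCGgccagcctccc
Nanog: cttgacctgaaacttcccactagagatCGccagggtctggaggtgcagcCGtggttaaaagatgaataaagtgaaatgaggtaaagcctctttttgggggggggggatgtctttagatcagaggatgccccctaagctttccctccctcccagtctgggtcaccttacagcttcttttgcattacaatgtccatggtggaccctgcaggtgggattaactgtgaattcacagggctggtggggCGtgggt

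Hormad1 has 19 CpG in this window, Tex19.1 has 15, Sycp1 has 17 and Nanog has 3. Over the member genes, taking the window of each gene with the most CpG, the median was 15, against 6 over all 27025 genes with a window. At least 10 CpG were found in 24 of 33 member genes (72.7%) and in 40.2% of all genes. The motif CACGTG, the E-box, which reads the same on both strands and contains a CpG, was found in 12 of 33 member genes (36.4%), against 6.86% of all genes. Among windows with 10 to 30 CpG it was in 12 of 25 member windows (48.0%) and in 9.31% of all windows, with Hormad1 and Tdrd1 each counted through 2 overlapping windows. The motif TCCCGC, a core of E2F sites, was searched as TCCCGC and GCGGGA and was found in 13 of 33 member genes (39.4%), against 18.8% of all genes. It was in 10 of 25 member windows with 10 to 30 CpG and in 34.6% of all such windows, so that at matched CpG the share of the E-box stood further from all promoters than that of TCCCGC. In the windows printed above, TCCCGC or its complement starts at position -95 of Hormad1 and -33 of Tex19.1, counted back from the start, and the E-box lies at -94 of Sycp1 and at 2 positions of Hormad1. Members with and without RNA had close CpG medians. The median was 16 CpG for the 11 members with a window and no count, 14 for the 8 with 1 to 9 counts over the 4 libraries, and 14 for the 14 with at least 10 counts. Piwil2, Tdrd6, Tex15, Spo11, Dppa2, Dppa3 and Dppa4 had no window.

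**Figure D1:**
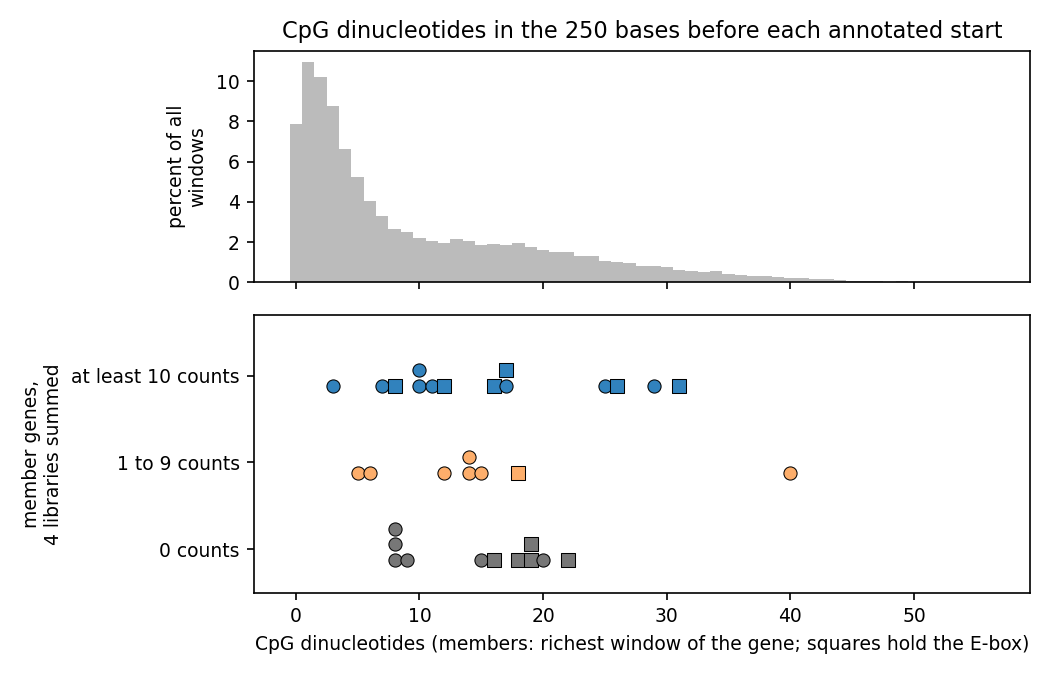
CpG dinucleotides in the 250 bases before annotated starts, as the percent of all windows (top) and for each member gene with a window, in rows by its counts over the 4 libraries (bottom; squares hold the E-box CACGTG, circles do not). The medians are 16 CpG for members without a count and 14 for both other rows, and members with counts spread more widely, from 3 to 40 CpG, than those without, from 8 to 22.

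Most members were silent or close to it in every library. Of the 40, 15 had no count in any of the 4 libraries, 8 had between 1 and 9 counts over the 4, and 17 had at least 10. Over all genes of the table, 49.8% had no count in any library, against 37.5% of the members. Of these 54532 genes, 27152 had no count, 8383 had between 1 and 9, and 18997 had at least 10. Only 19578 of them are labelled protein-coding, as most members are, so these shares are of unlike sets. The silent members were 5 of the piRNA pathway (Mael, Piwil1, Tdrd1, Asz1 and Mov10l1, proteins that make, carry or gather piRNAs), 2 meiotic genes (Hormad1, of unpaired chromosome axes, and Spo11, which makes the breaks that start recombination), 4 other germ cell genes (Dazl, an RNA-binding protein needed for germ cell development, Tuba3a, Rpl10l, Zar1) and 4 genes of the early embryo (Dppa2, Dppa3, Dppa4 and Pou5f1, which encodes OCT4). Per length, the 17 counted members spanned from 0.0201 CPM per kb (Tdrd9, mean of 4 libraries) to 19.0 CPM per kb (Tdrd7). Tdrd7 stood at the 88.4th percentile of 19578 protein-coding genes and Sycp1, next in order at 1.38 CPM per kb, at the 54.7th.

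**Figure D2:**
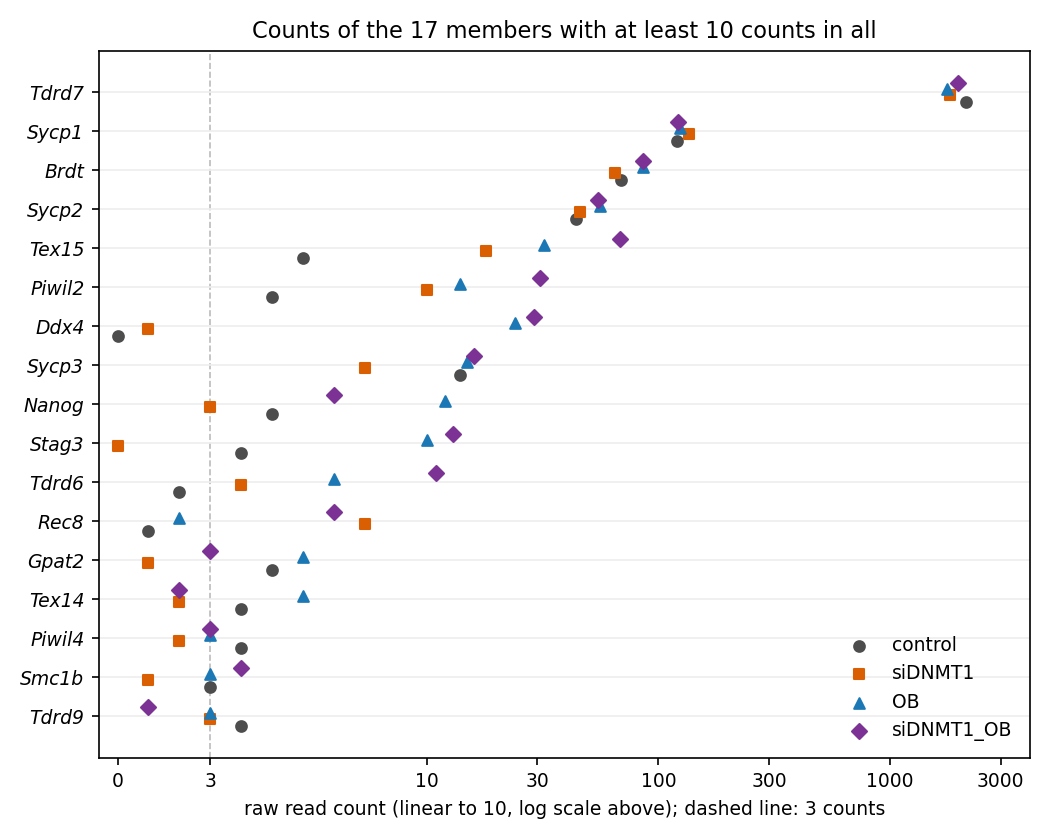
Raw read counts of the 17 members with at least 10 counts over the 4 libraries, 1 marker per library, on an axis that is linear to 10 and logarithmic above. Tdrd7, Sycp1, Brdt and Sycp2 lie close together in the 4 libraries, whereas Tex15, Piwil2 and Ddx4 are spread out, with their highest counts in the library labelled siDNMT1_OB and their lowest in control.

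A gene was called higher or lower between 2 libraries when their summed count was at least 10, the log2 fold change was 1 or more in either direction, and the 95% interval of the ratio left out 1. The interval covers counting error only, not the variation between dishes. In siDNMT1 against control, 7 members had enough counts, of which 1 (Tex15) was higher and 0 were lower. Tex15 reached the count minimum mainly through siDNMT1, with 6 counts in control. By the same rule 2.97% of all 16668 genes tested were higher and 2.5% lower. The median log2 fold change of these 7 members was 0.14, beside a median of -0.000178 over all genes tested. In the library labelled siDNMT1_OB against OB, Dnmt1 RNA was not lower and 11 members had enough counts. Of these, 0 were called in either direction, where 3.08% of 17167 genes were higher and 2.98% lower. The median log2 fold change of these 11 members was -0.08, against 0.00199 over all genes. No member was higher in both comparisons, as 0.501% of 15974 genes tested in both were. The interval lay above 1 in both for 1 of the 7 members tested in both (Tex15), against 8.41% of all genes. Over the 17 counted members, the ratio was above 1 in both comparisons for 5, below 1 in both for 8, and on opposite sides for 4, with Brdt, at 0.997 in untreated cells, among the 8 and turning above 1 there with total count and upper quartile scaling.

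**Figure D3:**
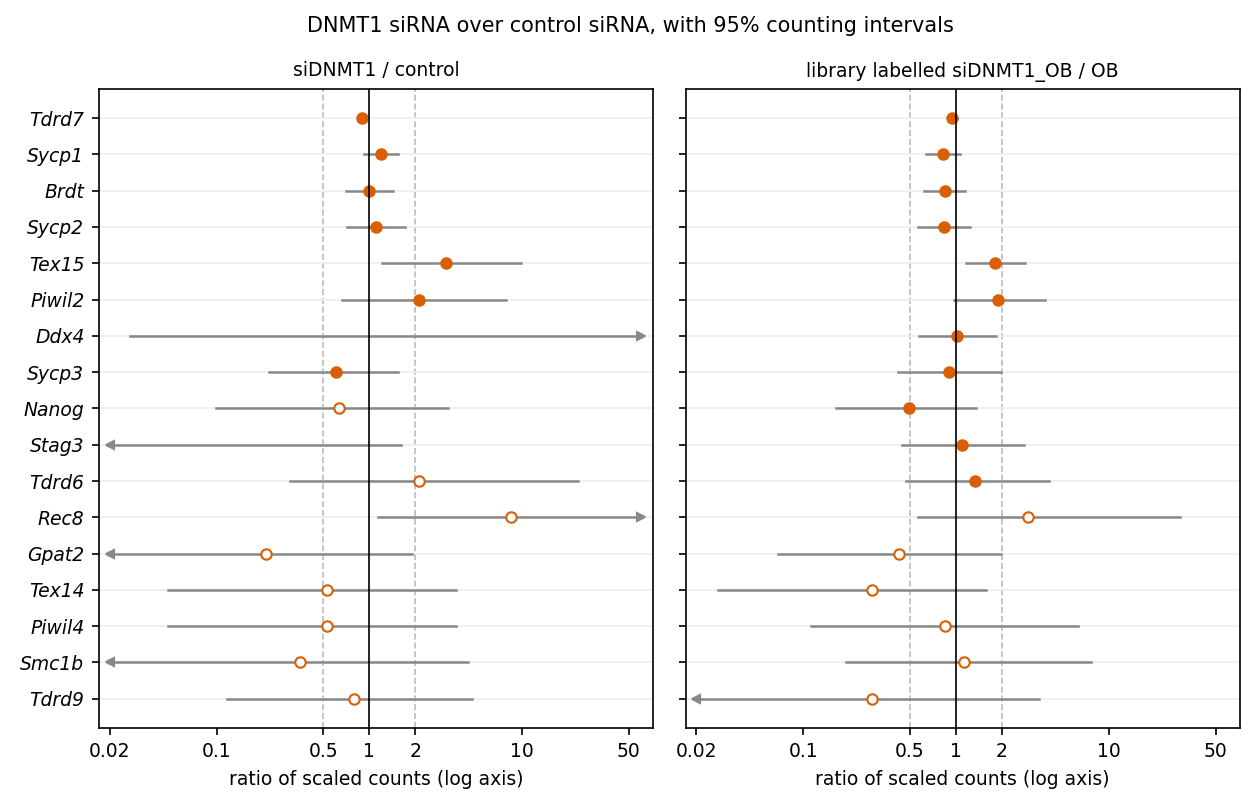
Ratio of scaled counts for the 17 members, siDNMT1 over control (left) and the library labelled siDNMT1_OB over OB (right), on a log axis with the exact 95% counting interval. Filled points had at least 10 counts over both libraries, and arrows run off the axis. Ddx4 and Stag3 have no point on the left because 1 of the libraries was at 0. Only Tex15 has an interval above 1 in both panels, while the best counted members (Tdrd7, Sycp1, Brdt, Sycp2) lie between 0.825 and 1.19.

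Within the piRNA group, Tex15 was the member called higher in siDNMT1 against control. Tex15 (chr8:33516738-33585582, plus strand), needed for meiotic recombination and for silencing transposons in male germ cells, had 6 counts in the control library, 18 with siDNMT1, 32 with OB and 68 with siDNMT1_OB. It was lowest in control, higher in siDNMT1 than in control, and above OB in the library labelled siDNMT1_OB. The ratio was 3.18 (1.21 to 9.77) in siDNMT1 against control, a log2 fold change of 1.39. It was 1.80 (1.16 to 2.83) in the library labelled siDNMT1_OB against OB, a log2 fold change of 0.81, short of the size threshold. The angiopoietin receptor gene Tek, given above, was also lowest in control and highest in the library labelled siDNMT1_OB, as was Amh, a hormone of Sertoli cells in the testis, with 15 counts in the control library, 31 in siDNMT1 and OB alike, and 42 in siDNMT1_OB, while Fshr, of the same cells, was at 0. Tek was at 3.16 (2.28 to 4.42) in siDNMT1 against control and Amh at 2.19 (1.15 to 4.36). Of the other testis somatic markers in this comparison, Star went the other way, at 0.765 (0.540 to 1.08) with 83 counts in control and 60 in siDNMT1. Insl3 was at 1.85 (0.725 to 5.10), and both of these intervals reached 1. In the library labelled siDNMT1_OB against OB, Tek was at 2.72 (2.04 to 3.67) and Amh at 1.14 (0.703 to 1.88). Their part in the Tex15 counts was not tested. Piwil2 (chr14:70372477-70429383, minus strand), the PIWI protein MILI, followed the same order, with 5 counts in the control library, 10 with siDNMT1, 14 with OB and 31 with siDNMT1_OB. Its ratios were 2.12 (0.659 to 7.89) and 1.87 (0.967 to 3.81), and both intervals reached 1, so neither difference was larger than counting error. Ddx4 (chr13:112598333-112652475, minus strand), the RNA helicase VASA that marks germ cells, had 0 counts in the control library, 1 with siDNMT1, 24 with OB and 29 with siDNMT1_OB. Its RNA was found in the induced libraries, which also had longer culture, and hardly in the untreated ones. The library labelled siDNMT1_OB did not differ from OB beyond counting error, at 1.02 (0.574 to 1.83).

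Tdrd7 (chr4:45965334-46034761, plus strand), a tudor protein of RNA granules that is also made in the lens, was the abundant member, with 2130 counts in the control library, 1811 with siDNMT1, 1763 with OB and 1970 with siDNMT1_OB. In siDNMT1 against control it stood at 0.900 (0.845 to 0.959), an interval below 1 but far from the size threshold, and it stood at 0.944 (0.885 to 1.01) after induction. Tdrd6, a nuage scaffold of spermatids, had 2, 4, 7 and 11 counts in control, siDNMT1, OB and siDNMT1_OB. The other counted members of the pathway were at a few reads without a common order: Gpat2, a mitochondrial acyltransferase needed for piRNA production, had 5, 1, 6 and 3 counts in that order of libraries. Piwil4, the PIWI protein MIWI2, had 4, 2, 3 and 3 counts. The helicase gene Tdrd9 had 4, 3, 3 and 1. Of the 3 members with 1 to 9 counts over the 4 libraries, Tdrd5 reached at most 2 counts in a library, and Tdrd12 and Tex19.1 had 1 count, both in siDNMT1_OB.

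Of the meiotic genes, those of the synaptonemal complex, the protein zipper between paired chromosomes, were the best counted. Sycp1 (chr3:102818499-102936100, minus strand), its transverse filament, had 120 counts in the control library, 135 with siDNMT1, 124 with OB and 121 with siDNMT1_OB. These libraries were close to each other, with ratios of 1.19 (0.924 to 1.54) in untreated cells and 0.825 (0.637 to 1.07) after induction. Sycp2, of the lateral element, had 44, 46, 56 and 55 counts in control, siDNMT1, OB and siDNMT1_OB. Its ratios were 1.11 (0.716 to 1.71) and 0.830 (0.562 to 1.23), so that a change of more than 2-fold lay outside both intervals. Sycp3, also of the lateral element, had 14, 8, 15 and 16 counts. That count is uncertain, because 660 of its 1264 exon bases overlap Chpt1 on the opposite strand, which had between 1588 and 2094 counts, and the library kit did not mark strand.

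Meiotic cohesin, the ring that holds sister chromatids, contributed 3 members. Rec8 (chr14:55618037-55625395, plus strand), its kleisin, had 1 count in the control library, 8 with siDNMT1, 2 with OB and 7 with siDNMT1_OB. It was low in control and OB and had more counts in siDNMT1 and in the library labelled siDNMT1_OB. With 9 counts over the untreated pair it was under the count minimum, and its ratio of 8.47 had an interval from 1.14 to 376, while that after induction was 2.96 (0.563 to 29.2). Stag3 had 4 counts in the control library, 0 with siDNMT1, 10 with OB and 13 with siDNMT1_OB, so it did not share this order. Smc1b had 3, 1, 3 and 4 counts in control, siDNMT1, OB and siDNMT1_OB. Stra8, which starts meiosis in response to retinoic acid, had 2 counts, all in siDNMT1_OB, and Dmc1, the meiotic recombinase, had 3 in OB and 1 in siDNMT1_OB.

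Among the other germ cell genes, Brdt, a bromodomain protein of the testis, carried nearly all counts. It had 69 counts in the control library, 65 with siDNMT1, 86 with OB and 86 with siDNMT1_OB, with ratios of 0.997 (0.700 to 1.42) in untreated cells and 0.845 (0.619 to 1.15) after induction. Neither siDNMT1 from control nor the library labelled siDNMT1_OB from OB differed beyond counting error. Tex14, of the bridges between germ cells, had 4, 2, 6 and 2 counts in control, siDNMT1, OB and siDNMT1_OB. Tex101 had 2 counts, both in control, and Tuba3b, a testis tubulin, and Slc25a31, a testis ADP/ATP carrier, had 1 count each in siDNMT1_OB. Tuba3a and Tuba3b are 96.5% identical over 1447 bases, so this count cannot be placed with certainty.

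In the pluripotency group, Nanog was the member with counts, at 5 in the control library, 3 with siDNMT1, 12 with OB and 7 with siDNMT1_OB. It had fewer counts in siDNMT1 than in control, and fewer than OB in the library labelled siDNMT1_OB, and both intervals reached 1, at 0.635 (0.0986 to 3.26) and 0.493 (0.164 to 1.36). These few reads are uncertain, since stretches of the Nanog transcript are at least 95% identical to parts of other genes. Pou5f1, Dppa2, Dppa3 and Dppa4, which work beside or before Nanog in the early embryo, stayed at 0 counts in all 4 libraries. A count of 0 here allows up to 0.117 CPM in siDNMT1 and 0.112 CPM in siDNMT1_OB. Near-identical copies exist for Dppa2, Dppa3, Dppa4, Hormad1, Rpl10l and Zar1, so reads of these genes could be lost or placed elsewhere, and Pou5f1, Piwil4, Tdrd5 and Tuba3a overlap another gene on the opposite strand that had 0 or 1 counts.

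The switch from 0 counts to some counts was then followed, since derepression of a silent gene would appear there. The shares over all genes again include those not labelled protein-coding. Of the 22 members at 0 in control, 1 (Ddx4, with 1 count) had a count in siDNMT1, or 4.55%, against 6.86% of all genes at 0 in control. In the reverse direction, 2 of the 23 members at 0 in siDNMT1 had counts in control (Stag3 with 4 and Tex101 with 2), or 8.70%, against 7.19% of all genes. Of the 21 members at 0 in OB, 5 (Stra8, Slc25a31, Tuba3b, Tdrd12 and Tex19.1) had 1 or 2 counts in the library labelled siDNMT1_OB, or 23.8%, against 7.78% of all genes. Of the 16 at 0 in siDNMT1_OB, 0 had a count in OB, against 6.88% of all genes. The highest of the 5 gained counts was 2, under the 3 counts that a count of 0 allows. Dnmt1 RNA was not lower in that library, and the part of the siRNA in these counts was not tested. Thinned to the depth of OB, the shallowest library, 22.7 members would be expected with a count in siDNMT1_OB, 19.0 in OB, 17.5 in control and 16.6 in siDNMT1. Over all genes, the same thinning gave 22627 in siDNMT1_OB, 22809 in OB, 21800 in control and 21856 in siDNMT1. More than 3 counts were reached by 9 members in siDNMT1 and by 13 in each of the other libraries. Over all genes, more than 3 counts were reached by 17457 in siDNMT1, 17527 in control, 17861 in OB and 18117 in siDNMT1_OB.

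**Figure D4:**
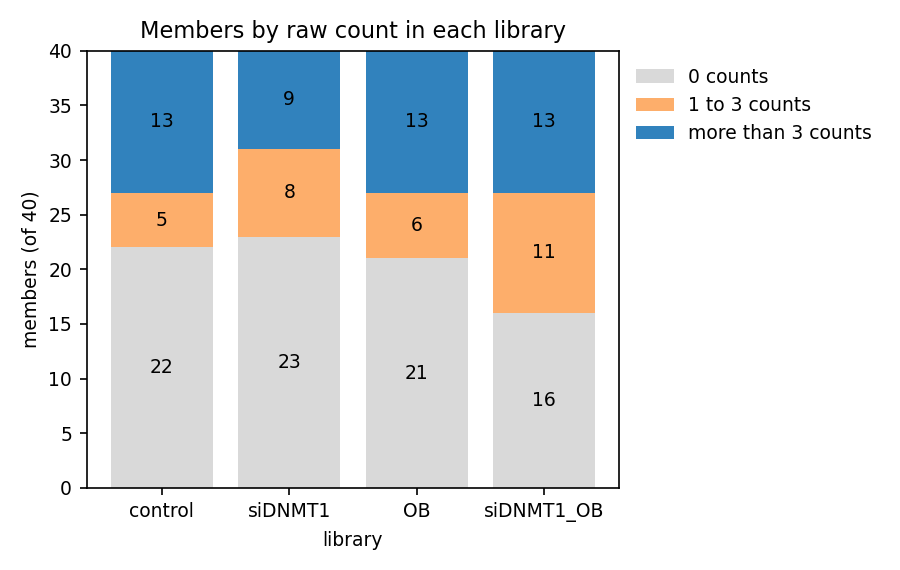
Number of the 40 members at 0 counts, at 1 to 3 counts and above 3 counts in each library. In siDNMT1_OB 16 members are at 0 and 11 at 1 to 3 counts, against 21 and 6 in OB, while 13 members stand above 3 counts in both.

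Summed over all 40 members, there were 2423 counts in the control library, 2120 with siDNMT1, 2170 with OB and 2435 with siDNMT1_OB. The ratio was 0.926 (0.873 to 0.982) in siDNMT1 against control, and 0.948 (0.895 to 1.01) in the library labelled siDNMT1_OB against OB. Tdrd7 alone held between 80.9% and 87.9% of these counts. Without it, the sums were 293, 309, 407 and 465 counts in control, siDNMT1, OB and siDNMT1_OB, and the same ratios were 1.12 (0.948 to 1.31) and 0.966 (0.843 to 1.11). Neither sum without Tdrd7 differed beyond counting error, and an increase of more than 1.31-fold in untreated cells lay outside the interval. With Sycp1 and Brdt also left out, the ratio of the summed counts of the other 37 members in untreated cells was 1.11 (0.840 to 1.47). These limits hold for the sums and for counting error only. Single members could stand above them, as Tex15 did at 3.18. By role, the piRNA group with all 16 genes stood at 0.909 (0.854 to 0.968) in siDNMT1 against control. It stood at 0.966 (0.908 to 1.03) in the library labelled siDNMT1_OB against OB. Without Tdrd7 this group had 27, 41, 90 and 149 counts in control, siDNMT1, OB and siDNMT1_OB. Its ratio without Tdrd7 was 1.61 (0.965 to 2.72) in siDNMT1 against control. It was 1.40 (1.07 to 1.84) in the library labelled siDNMT1_OB against OB, in which Dnmt1 RNA was not lower. When Tex15, Piwil2 and Ddx4 were also left out, the other 12 genes of the group had 16, 12, 20 and 21 counts, with ratios of 0.794 (0.343 to 1.79) and 0.887 (0.458 to 1.73). The meiotic genes summed to 186, 198, 213 and 219 counts, with ratios of 1.13 (0.918 to 1.38) and 0.869 (0.716 to 1.05). The other germ cell genes summed to 75, 67, 92 and 90 counts, with ratios of 0.946 (0.670 to 1.33) and 0.827 (0.611 to 1.12).

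**Figure D5:**
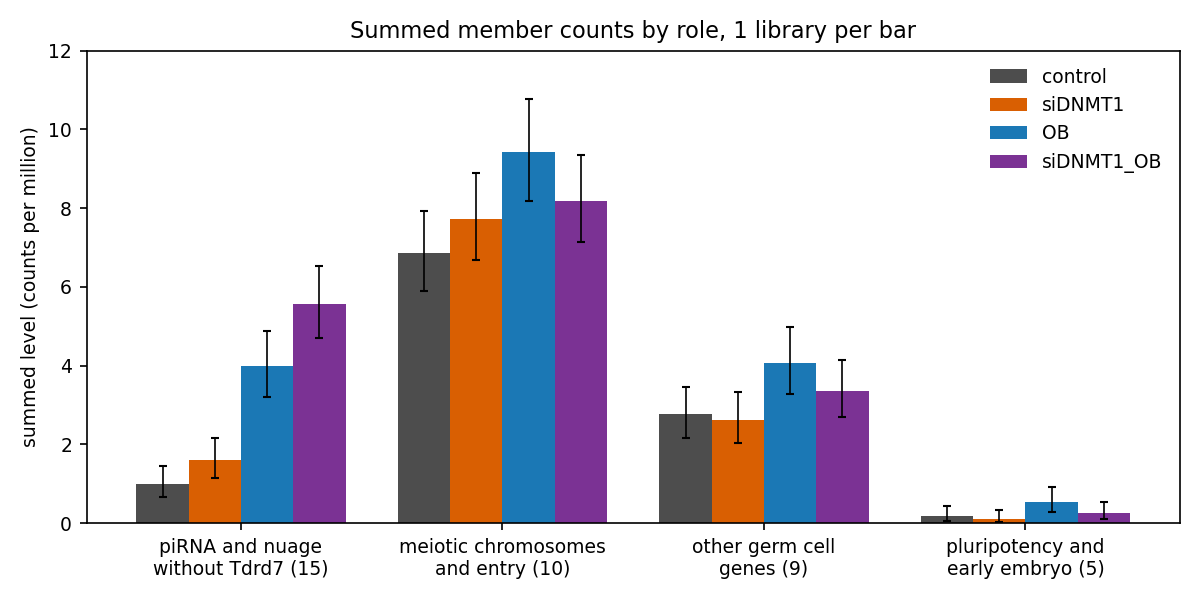
Summed level of each role group in CPM, 1 library per bar, with exact 95% counting intervals and the number of genes in brackets; Tdrd7 is left out of the piRNA group. The bars of the OB library stand above those of control in all 4 groups. In that comparison the pluripotency bars, from Nanog alone, gave a ratio of 2.88 (0.944 to 10.4). The meiotic group stood at 1.37 (1.12 to 1.68) and the other germ cell genes at 1.47 (1.07 to 2.02). With Tdrd7 the piRNA group stood at 1.03 (0.968 to 1.10). As drawn, the piRNA group has its lowest bar in control and its highest in the library labelled siDNMT1_OB.

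OB induction was compared next, together with its added time in culture, first between the libraries with the control siRNA. In OB against control, 3 of 12 members tested were called higher (Ddx4, Tex15 and Piwil2) and 0 lower, where 13.1% of 17004 genes were higher and 7.17% lower. Ddx4, Tex15, Piwil2, Stag3 and Nanog reached the count minimum mainly through OB, with 6 or fewer counts in control, so no weight rests on how many of the 12 were higher. With a mean of at least 1 CPM as the filter, 1 of 5 members tested (Tex15) was called, where 17.7% of all genes were called in either direction. Tex15 passed this filter mainly through the induced libraries, at 1.42 CPM in OB and 2.54 in siDNMT1_OB. It was at 0.221 CPM in control and 0.703 in siDNMT1, so no weight rests on this count either. Ddx4 was at least 9.59-fold higher when the library at 0 was set to 3 counts, and the exact interval of its counts started at 7.22. Tex15 was higher at a ratio of 6.40 (2.64 to 18.7) and Piwil2 at 3.36 (1.14 to 11.9). Brdt (log2 fold change 0.57) and Sycp2 (0.59) had intervals above 1 and were under the size threshold. In the same comparison, 1 of the 26 tested genes of DNA methylation and germline repression was higher and 4 were lower. Over all genes tested, 20.2% were called in either direction. Dnmt1, at 0.322, Uhrf1, at 0.203 (0.190 to 0.218), Hells, a chromatin remodeller needed for DNA methylation, at 0.229, and L3mbtl2, of a Polycomb complex that represses germline genes, at 0.497 (0.433 to 0.569), were lower. Tet1, which oxidises methylated cytosine, was higher at 2.03 (1.75 to 2.36). Of the testis somatic markers, Amh was higher at 2.48 (1.30 to 4.94) and Insl3 at 3.15 (1.34 to 8.22), with 21 counts in OB against 8 in control, while Star was at 0.809 (0.566 to 1.15). The mesenchymal markers Pdgfra, at 5.53 (5.33 to 5.73), and Nt5e, at 3.00 (1.27 to 7.87), were also higher, and the epithelial marker Cdh1 was lower at 0.336 (0.123 to 0.799). The part of these genes and cells in the members' differences was not tested.

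The same contrast was drawn between the libraries labelled with the DNMT1 siRNA. In the library labelled siDNMT1_OB against siDNMT1, 4 of 12 members tested were higher (Ddx4, Tex15, Piwil2 and Stag3) and 0 lower, where 8.78% of 17024 genes were higher and 3.43% lower. Ddx4 was higher at 27.8 (4.60 to 1134), against 1 count in siDNMT1, Tex15 at 3.62 (2.13 to 6.46) and Piwil2 at 2.97 (1.42 to 6.79). Stag3 was at least 4.15-fold higher when siDNMT1, where it had 0, was set to 3 counts, and its exact interval started at 2.92. Ddx4, Stag3, Nanog and Tdrd6 reached the count minimum mainly through the induced library, with 4 or fewer counts in siDNMT1. With the filter of a mean of at least 1 CPM, 1 of 5 members tested (Tex15) was called, where 9.53% of all genes were called in either direction. Tex15 passed that filter mainly through the induced libraries, so no weight rests on either count. Of the 26 tested genes of DNA methylation and germline repression, 0 were called in either direction here, with Dnmt1 at 0.707 (0.671 to 0.745), Uhrf1 at 0.541 (0.514 to 0.569) and Tet1 at 1.67 (1.46 to 1.91). Among the cell type markers, the blood marker Csf1r was higher in this comparison at 3.35 (1.31 to 10.1), with 21 counts against 6. Cd68, the better counted blood marker, did not follow, at 0.973 (0.672 to 1.41) with 62 counts against 61. Of 12 mesenchymal markers tested, 2 were higher, Pdgfra at 2.94 (2.83 to 3.06) and Nt5e at 3.68 (1.97 to 7.39). The part of these cells in the members' differences was not tested. Summed over all 40, the members stood at 1.07 (1.01 to 1.14) in OB against control and at 1.10 (1.04 to 1.17) in this comparison. Without Tdrd7 they stood at 1.67 (1.43 to 1.94) and 1.44 (1.25 to 1.67). Without Tdrd7, Sycp1 and Brdt they stood at 2.27 (1.78 to 2.91) and 2.27 (1.80 to 2.86), so the size depends on which members are summed. These sums still held Ddx4, Tex15 and Piwil2, called higher in both comparisons, so they do not show a rise shared by the members. No sum of all members without these 3 was made. The 12 piRNA genes left without them and Tdrd7 had 16 counts in control and 20 in OB. They had 12 in siDNMT1 and 21 in siDNMT1_OB. Their ratios had intervals of 0.738 to 3.09 and 0.787 to 3.74, and both reached 1. The comparisons share no library with each other.

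Genes that write, read or remove DNA methylation or repress germline genes were counted as a list of 27, of which 26 had enough counts. In siDNMT1 against control, 1 (Dnmt1) was lower and 0 were higher. In the library labelled siDNMT1_OB against OB, 1 (Uhrf1) was higher and 0 were lower. Uhrf1, which guides DNMT1 to newly copied DNA, had 5505 counts in the control library, 4219 with siDNMT1, 934 with OB and 2385 with siDNMT1_OB, with ratios of 0.811 (0.779 to 0.845) and 2.16 (2.00 to 2.33). The de novo methyltransferase gene Dnmt3a had 1183, 1071, 852 and 939 counts in control, siDNMT1, OB and siDNMT1_OB, and Dnmt3b had 138, 163, 103 and 105. Neither was called in either siRNA comparison.

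A list of 48 further germline genes outside the set was counted in the same way. Of these, 23 had no count in any library. In siDNMT1 against control, 5 were tested, of which 1 was higher and 1 lower. Taf7l, a testis form of a general transcription factor subunit, had 3 counts in control and 11 in siDNMT1, at a ratio of 3.88 (1.03 to 21.7), and 1 and 0 counts in OB and siDNMT1_OB. Syce2, of the central element of the synaptonemal complex, went the other way, with 35 counts in control and 15 in siDNMT1, at 0.454 (0.230 to 0.853). In the library labelled siDNMT1_OB against OB, 0 of 10 were called. In OB against control, 0 of 8 tested were higher and 1 was lower. In the library labelled siDNMT1_OB against siDNMT1, 1 of 9 was higher and 2 were lower. The shares over all genes stand above for both comparisons. Tdrkh was lower in both, at 0.269 (0.194 to 0.367) and 0.380 (0.274 to 0.522). Of 20 further pluripotency genes, 12 had no count in any library and 0 of 3 tested were called in untreated cells. After induction 1 of 3 was called, Tfcp2l1, which was lower, with 6 counts in the library labelled siDNMT1_OB against 21 in OB, at 0.241 (0.0797 to 0.618). The others tested went the other way under the size threshold, Klf4 at 1.76 (1.63 to 1.90) and Klf2 at 1.69 (1.53 to 1.86).

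A fit of both siRNA states at once was the only one that allowed a test, with siRNA and OB induction as additive terms in edgeR and 1 residual degree of freedom. It treats the siRNA effect as equal in both states, although Dnmt1 RNA was lower in untreated cells only. Of 18997 genes fitted, 0 passed an adjusted p of 0.05 by edgeR's quasi-likelihood test and 1444 had an unadjusted p under 0.05. Of the 17 members fitted, 0 passed and 1 had an unadjusted p under 0.05. This was Tex15, with a log2 fold change of 1.10 and an adjusted p of 0.58 (unadjusted p = 0.0325) by edgeR's quasi-likelihood test. Tex15 was higher in siDNMT1 than in control, and above OB in the library labelled siDNMT1_OB. Rec8, at 2.15, had an adjusted p of 0.687 and Piwil2, at 0.96, an adjusted p of 0.767 by the same edgeR test.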

How the data were processed

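Gene counts were deposited by the authors in 1 table of raw whole-number read counts that were not normalized. As the methods of the study state, poly(A) libraries of 4 samples (TruSeq RNA v2, which does not mark strand) went through Trimmomatic for trimming, HISAT2 for alignment and featureCounts for counting; the versions used for the RNA reads and what was done with multiply mapped reads are not given in the sources used here. Of 54409 genes shared with GENCODE M21, 98.3% had the same GRCm38 position. With edgeR 4.0.16 in R 4.3.3, TMM factors were set by 13233 genes with a mean of at least 1 CPM. Log2 fold changes used a prior count of 2. The 95% interval of a ratio of counts is the exact one of Clopper and Pearson, computed in scipy 1.17.1, and reads carried no molecular identifiers. Near-identical copies (at least 150 bases at 95% identity) were searched with blastn 2.17.0. Promoter windows came from RefSeq. DESeq2 1.42.0 gave alternative size factors.

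The members and the lists were chosen with earlier results of these data known. Members with at least 10 counts over the 4 libraries were named with every count and the others by name. Of other genes, Dnmt1, Uhrf1, Dnmt3a, Dnmt3b and from each list up to 3 genes called in a siRNA comparison were named. The markers Col1a1, Ptprc, Cd68, Insl3, Star, Csf1r, Pdgfra, Cdh1, Pecam1, Kdr, Cdh5 and those at 0 were chosen after their values were seen. So were Hells, L3mbtl2, Tet1, Tdrkh, Klf4 and Klf2.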

Additional observations from a re-analysis of the deposited data

How the results depend on the processing

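Depth limits most members: 23 of 40 had under 10 counts over the 4 libraries. In siDNMT1 against control, a filter of at least 1 count called 2 of 19 members (Tex15 and Rec8) in place of 1 of 7, where 4.43% of all genes were called in place of 5.47%. In the library labelled siDNMT1_OB against OB, a 1.5-fold threshold called 1 of 11 (Tex15, log2 fold change 0.81) in place of 0, where 12% of all genes were called in place of 6.06%, and it also called Sycp2 in OB against control (0.59). With a mean of at least 1 CPM as the filter, 1 member (Tex15) was called in OB against control and 1 (Tex15) in the library labelled siDNMT1_OB against siDNMT1, because Ddx4, Piwil2 and Stag3 were no longer tested. Tex15 passed this filter mainly through the induced libraries. The summed ratio was 1.12 in untreated cells without Tdrd7, 1.11 without Tdrd7, Sycp1 and Brdt, and 1.11 after induction without the same 3, against 0.926 and 0.948 with all members. Total count, upper quartile and DESeq2 scaling and a read test adjusted over all genes moved no count of called members by more than 1.5 times, nor did TMM from the compared pair alone (chosen after seeing the data) in the 2 siRNA comparisons. Leaving out members with uncertain counts was run on the summed ratios only, which stood at 0.929 and 0.951. These sums still held Tdrd7 and most of the counts, so they could hardly move. They do not show how overlaps or near-identical copies bear on the members with few counts. Total count and upper quartile scaling turned 2 log2 fold changes near 0: Brdt in siDNMT1 against control, from -0.00376 to 0.00941 and 0.0218, and Tdrd7 in OB against control, from -0.01 to 0.02 and 0.04. No paired analysis by replicate number was possible because each group held 1 library, and the additive fit, with OB induction as a term, is the nearest to one.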
